A study of Drosophila melanogaster with 18 samples.

Results

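The ecdysteroid biosynthesis genes phm (phantom), dib (disembodied), sad (shadow), shd (shade), spo (spook) and Start1 were followed in control and EcRi animals at the onset of metamorphosis. Members were the probe sets annotated to exactly 1 of these 6 gene symbols, which gave 6 genes, each read by 1 probe set, of 10844 genes so annotated and 13966 probe sets on the array. The probe set of phm was matched through its gene identifier, since the annotation gives that gene its other symbol, phtm. The rule uses annotation and no measured value, though the members were chosen with earlier results of these data known.

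Expression was measured on 18 Affymetrix Drosophila Genome Arrays, each hybridised with RNA from 10 whole animals. EcRi animals carried hs-EcRi-11, a transgene under a heat-inducible promoter that makes double-stranded RNA against the region of the ecdysone receptor gene EcR that its isoforms share. They were heated in the third instar at 37 degrees C, 2 times for 1 h each, 24 and 18 h before pupariation. The study states that EcRi animals all went on to form arrested elongated prepupae. Control animals were of the w1118 strain, and the sources used here do not say whether they were heated, so strain, transgene and heat cannot be told apart as the source of a difference. Both strains were collected at -4 h (late larvae), 0 h (pupariation) and 4 h (prepupae), in 6 groups of 3 arrays from independent collections. Setting the strains side by side at each age asked which transcripts depend on EcR.

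Ecdysone is made from dietary sterols in the prothoracic gland, a small part of the ring gland beside the brain, through a chain of cytochrome P450 enzymes known as the Halloween gene products. It is released into the blood and hydroxylated in peripheral tissues such as fat body, midgut and Malpighian tubules to 20-hydroxyecdysone (20E), the active hormone that binds the EcR/USP receptor. Pulses of 20E trigger pupariation and drive the prepupal stage, and transcripts of the gland's enzymes are known to vary with them.

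Values were expression intensities on a linear scale. Intensities under 91.6, the 20th percentile of all values on all arrays, were treated as not distinguishable from one another and raised to that floor before log2 was taken. A probe set was called where the linear model of limma, fitted to all probe sets and arrays, gave a Benjamini-Hochberg adjusted p under 0.1 together with a change of at least 1.5-fold. Differences are log2 EcRi minus control unless stated otherwise, each followed by its standard error (SE) from the model, and 3 arrays a group. In RNA from whole animals, fewer cells of a type and less RNA per cell cannot be told apart.

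For 16 arrays the correlation with the most similar array was 0.974 to 0.995. EcRi 0 h replicate 1, at 0.933, and control -4 h replicate 1, at 0.939, stood apart, and EcRi 4 h replicates 1 and 3 were placed with them by earlier results of these data. Their own nearest correlations were 0.974 each, beside 0.976 for EcRi 4 h replicate 2, so this measure does not set them apart. Results that rest on these arrays are given with and without them. Groups share an estimate of spread, so leaving these arrays out can lower p with no change in a difference. Leaving out all 4 leaves 1 EcRi array at 4 h, replicate 2, so a 4 h value from that fit is that array against 3 control arrays, with a spread assumed to be that of the other groups, and is given as a value with no test. The targeted gene EcR was above the floor on every array, at 387 to 573 for its brighter probe set and 152 to 324 for its dimmer one. Neither probe set was called at any time. The brighter one differed by 0.08, -0.00 and 0.09 at -4, 0 and 4 h, and the dimmer one by -0.51, 0.39 and 0.36. The sources used here do not say whether the probes read the transgene's own RNA. The study took the arrested prepupae to fit an effective block in hormone signalling and strongly lowered EcR protein, citing earlier work. Its Northern blots showed no expression of a hormone-induced control transcript in EcRi animals. The EcR RNA values here measure neither protein nor receptor activity, so they do not test that block. Markers of the tissues expected in whole animals were present, with all measured genes above the floor on every array for midgut (6 genes), fat body (3) and muscle (2), and 2 of 3 for neurons.

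The members stood at very different distances from the floor. phm, which encodes the P450 that hydroxylates the sterol side chain at the first of the gland's final hydroxylations, was above it on all 18 arrays, at 9.74 to 24.8 times the floor with a median of 12.5 times. Start1, which encodes a sterol-binding protein of the StAR-related family found in the gland, lay at 2.92 to 11.4 times the floor with a median of 7.98. shd, whose P450 makes the final conversion of ecdysone to 20E outside the gland, lay at 3.64 to 6.40 times, with a median of 5.42.

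Closer to the floor were dib and sad, the P450 genes of the steps after phm in the gland. dib lay at 3.04 to 5.05 times the floor, with a median of 4.07. sad lay at 2.56 to 5.94 times, with a median of 2.90. These distances describe each probe set and do not rank the genes, since probes differ in brightness. Over all probe sets, 67.9% were above the floor on every array.

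spo, a P450 gene of an early step best known from the embryo, was under the floor on all 18 arrays. Its intensity ran from 10.95 to 60.03 with a median of 15.7, or 0.120 to 0.655 times the floor. The highest readings were 60.03 on EcRi 0 h replicate 1, 43.4 on EcRi 4 h replicate 3 and 42.1 on control -4 h replicate 1. These 3 are among the 4 arrays named above, and no difference is given for spo. The related gene spok, known to act in the larval gland, had no probe set matched here.

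**Figure D1:**
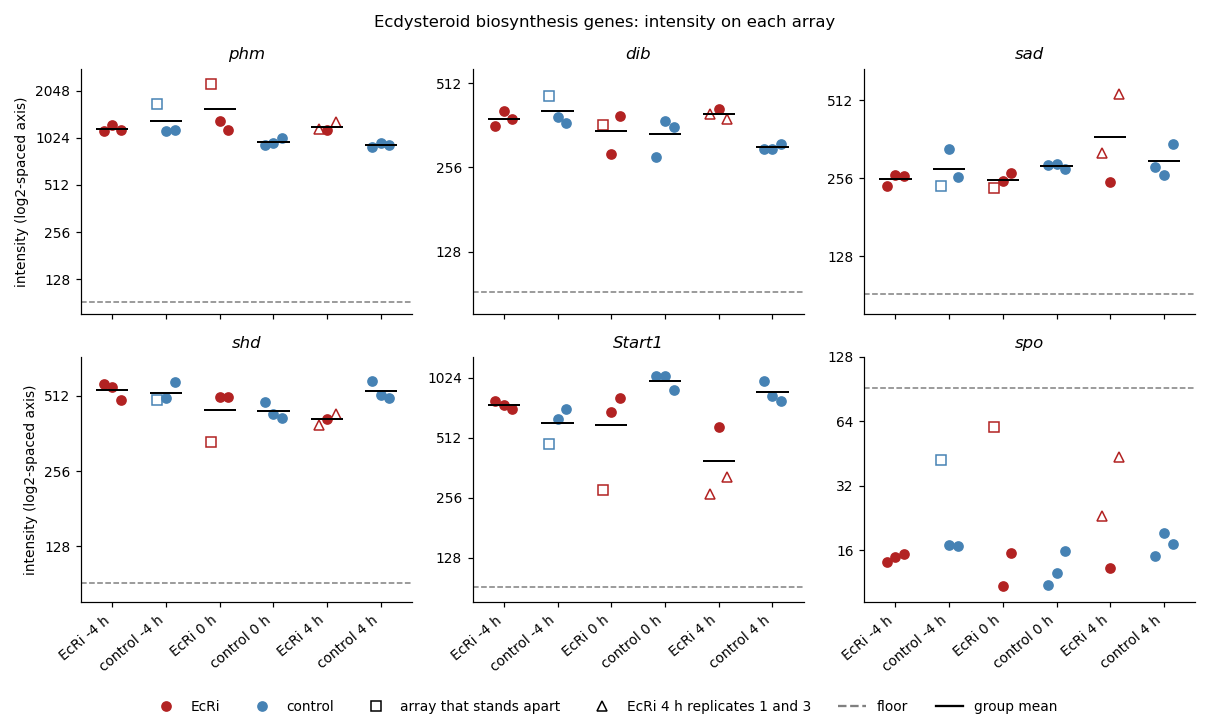
Intensity of the 6 members on each array, by strain and time (log2-spaced axis). Points are arrays, bars are means of 3 arrays, the dashed line is the floor of 91.6, open squares are the arrays that stand apart and open triangles are EcRi 4 h replicates 1 and 3. spo is under the floor on 18 of 18 arrays, and the other 5 genes are above it on all of them.

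The members did not move as a group. In EcRi against control animals, 0 of the 5 members above the floor were called at -4 h, where 2.94% of all probe sets were called. At 0 h 1 was called, phm, higher in EcRi animals, beside 7.69% of all probe sets in either direction and 3.01% higher. At 4 h 1 was called, Start1, lower in EcRi animals, beside 13.4% of all probe sets in either direction and 9.08% lower. The median difference of the 5 members above the floor was -0.08, -0.01 and 0.25 at the 3 times, beside 0.00, -0.00 and 0.00 over all probe sets. By limma, 0, 2 and 3 members had an unadjusted p under 0.05 at -4, 0 and 4 h, beside 12.7%, 23.2% and 30.5% of all probe sets.

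Start1 had the largest difference of any member. At -4 h the EcRi arrays read 780.4, 749 and 713, against 473, 638 and 710.0 in control animals. At 0 h the EcRi arrays read 280.3, 686 and 807, against 1039, 1042 and 889 in control animals. At 4 h they read 268, 582 and 326 in EcRi animals, against 984, 825 and 785 in control animals. EcRi arrays were thus all above control arrays at -4 h and all below them at 0 and 4 h. Such separation was common on the array: EcRi lay wholly above control for 13.5% of probe sets at -4 h, and wholly below for 15.7% at 0 h and 21.2% at 4 h.

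Start1 was lower in EcRi animals at 4 h, by 2.32-fold (log2 -1.22 ± 0.35, 95% interval -1.97 to -0.46, adjusted p = 0.032 by limma). Its means there were 392 ± 167 in EcRi and 865 ± 105 in control animals (SD, n = 3). At 0 h it was -0.88 ± 0.35 (95% interval -1.64 to -0.12, adjusted p = 0.15). At -4 h it was 0.32 ± 0.35 (-0.44 to 1.08, adjusted p = 0.75). Averaged over the 3 times Start1 was called lower as well, at -0.59 ± 0.20 (adjusted p = 0.057), where 7.64% of all probe sets were called in either direction and 4.55% lower.

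The size of the Start1 difference rested on the arrays named above. Both EcRi 4 h arrays with the lowest readings were replicates 1 and 3, and the lowest EcRi reading at 0 h was replicate 1. Without the 4 arrays Start1 stood at -0.56 at 4 h, under the 1.5-fold limit. This is the reading of 582 on EcRi 4 h replicate 2, the highest of that group, against 3 control arrays. At 0 h it stood at -0.41 in that fit. Leaving out only the pair that stands apart gave -1.22 at 4 h (adjusted p = 0.0023), and gave -0.41 for 0 h (adjusted p = 0.42). The 4 h difference was also -1.22 with all arrays, so its lower p came with a smaller SE. The call at 4 h was also lost without control 4 h replicate 1 (-1.12, adjusted p = 0.12), without EcRi 4 h replicate 1 (-0.98, adjusted p = 0.14) and without EcRi 4 h replicate 3 (-1.12, adjusted p = 0.10). Start1 was below control in EcRi animals at 4 h in each of these fits. The call on the mean over times was lost in 9 of the 18 fits that left out an array, and that mean was -0.27 without the 4 arrays, its 4 h term then resting on 1 EcRi array.

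phm went the other way. At -4 h the EcRi arrays read 1125, 1236 and 1151, against 1681, 1125 and 1144 in control animals, and the groups overlapped. At 0 h the EcRi arrays read 2271, 1306 and 1145, against 922, 947 and 1024 in control animals. At 4 h they read 1172, 1153 and 1284 in EcRi animals, against 892, 949.5 and 927 in control animals. All EcRi arrays were above all control arrays at 0 and 4 h, which held for 13.7% and 19.7% of all probe sets.

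phm was higher in EcRi animals at 0 h, by 1.56-fold (0.64 ± 0.21, 95% interval 0.19 to 1.09, adjusted p = 0.077). At 4 h it differed by 0.38 ± 0.21 (-0.07 to 0.83, adjusted p = 0.24), and at -4 h by -0.14 ± 0.21 (-0.59 to 0.30, adjusted p = 0.84). The highest phm reading of all, 2271, came from EcRi 0 h replicate 1, and the highest control reading, 1681, from control -4 h replicate 1. Without these 2 arrays the differences were 0.04 ± 0.07, 0.34 ± 0.07 and 0.38 ± 0.06 at -4, 0 and 4 h, and the adjusted p values 0.97, 0.0073 and 9.6e-04. In that fit the values at 0 and 4 h passed the limit on p and were under the limit on fold. No 4 h array was left out and the 4 h difference stayed at 0.38, so its lower p came with the smaller SE. The call at 0 h was lost in 10 of the 18 fits that left out an array: any control array at 0 or 4 h, any EcRi array at -4 h, or EcRi 0 h replicate 1. Only the last of these brought the difference to 0.34.

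**Figure D2:**
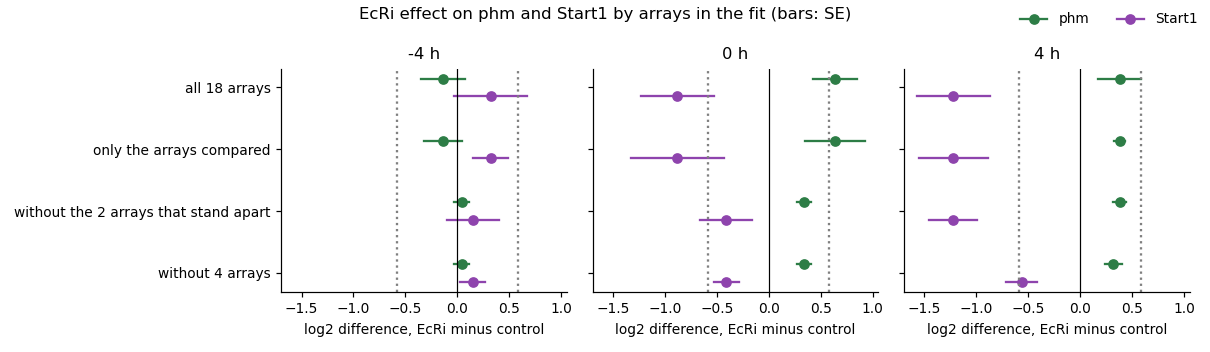
Difference between EcRi and control animals in log2 intensity for phm (green) and Start1 (purple) at each time, with bars of 1 SE, by the arrays in the fit. Dotted lines mark 1.5-fold. Without 4 arrays, which leaves 1 EcRi array at 4 h, Start1 is at -0.56 there, against -1.22 with all 18 arrays, and phm is at 0.34 at 0 h, against 0.64.

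dib encodes the P450 that acts after phm on the side chain. At -4 h its EcRi arrays read 359.9, 408 and 381, against 463, 389 and 370.5 in control animals. At 0 h they read 364, 285 and 392 in EcRi animals, against 279, 375 and 357 in control animals. The strains overlapped at both times, with differences of -0.08 ± 0.13 (95% interval -0.36 to 0.19) and 0.04 ± 0.13 (-0.23 to 0.32). At 4 h the EcRi arrays read 398, 414 and 382, all above the 299, 299 and 311 of control animals. Such separation above control held for 19.7% of all probe sets at 4 h. The dib difference of 0.39 ± 0.13, or 1.31-fold, passed the limit on p (adjusted p = 0.051) and not the limit on fold. It was 0.39 with the pair that stands apart left out (adjusted p = 0.027), and 0.45 with all 4 left out, which leaves the 1 EcRi array at 414.

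sad encodes the P450 of the last step in the gland, which yields ecdysone. At -4 h its EcRi arrays read 239, 263 and 261, against 238, 332 and 259.9 in control animals. At 0 h they read 235, 250.3 and 269 in EcRi animals, all below the 288, 290.2 and 279 of control animals. This separation at 0 h, which held for 15.7% of all probe sets, came with a difference of -0.19 ± 0.22 (-0.67 to 0.29, adjusted p = 0.62). At 4 h the EcRi arrays read 319.9, 247 and 544, against 282, 263 and 348 in control animals, and the groups overlapped. The difference at 4 h was 0.25 ± 0.22 (adjusted p = 0.52), and it turned to -0.07 without EcRi 4 h replicate 3, the array that read 544.

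shd acts outside the gland and was measured in the same RNA. At -4 h its EcRi arrays read 569.8, 555 and 490.5, against 493, 499.9 and 579.65 in control animals. At 0 h they read 333, 508 and 505 in EcRi animals, against 483, 434 and 418 in control animals. The strains overlapped at both times, with differences of 0.04 ± 0.14 and -0.01 ± 0.14. At 4 h the EcRi arrays read 390.1, 415 and 433, all below the 586, 516 and 499 of control animals. Such separation below control held for 21.2% of all probe sets at 4 h. The difference of -0.37 ± 0.14 (95% interval -0.67 to -0.07) had an adjusted p of 0.091 and was under the 1.5-fold limit. It was -0.37 with the pair that stands apart left out (adjusted p = 0.0067), and -0.36 with all 4 left out, which leaves the 1 EcRi array at 415.

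At least 1 midgut marker was called at each time, and at least 1 marker each of fat body and muscle at 4 h. Of all probe sets 2.94%, 7.69% and 13.4% were called at -4, 0 and 4 h. Of 6 measured midgut genes 1 was called at -4 h and all 6 at 0 and at 4 h, each time higher in EcRi animals, with summed intensities of 25672 to 26118 in EcRi and 4196 to 4273 in control animals at 4 h. Of 3 measured fat body genes 1 was called at 4 h, lower in EcRi animals, and the summed intensity was 35342 to 39565 in EcRi and 44012 to 45733 in control animals. Both measured muscle genes were called higher at 4 h. By limma 0 of 3 neuron genes were called, and the tubule gene Irk1 was not called. At the 3 times 0, 2 and 1 neuron genes had an unadjusted p under 0.05, beside 12.7%, 23.2% and 30.5% of all probe sets. In the ring gland, the corpora cardiaca gene Akh was above the floor on 18 arrays and differed by 0.13, -0.16 and 0.05 at -4, 0 and 4 h, with no call, while the corpora allata gene jhamt was above it on 0. The part of these markers in the members' differences was not tested.

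**Figure D3:**
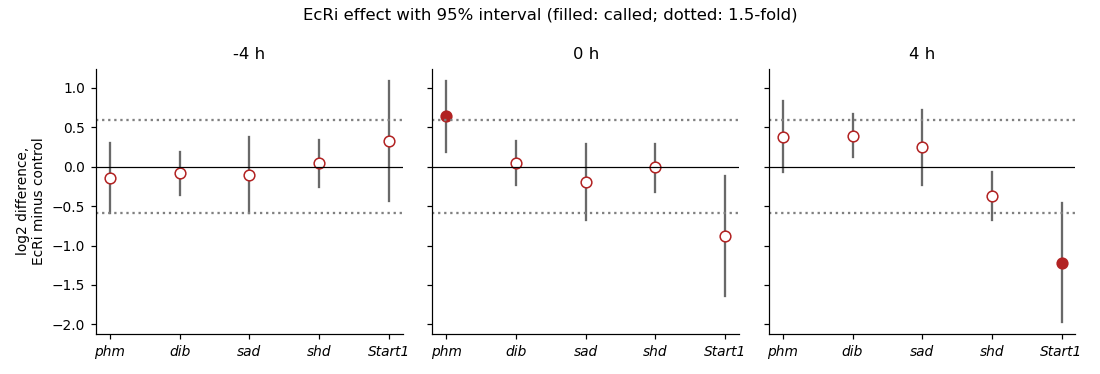
Difference between EcRi and control animals in log2 intensity for the 5 members above the floor, at -4, 0 and 4 h, with 95% intervals. Filled points are called and dotted lines mark 1.5-fold. phm at 0 h (0.64) and Start1 at 4 h (-1.22) are filled.

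Over time within a strain, no member was called. From -4 to 0 h Start1 changed by -0.47 ± 0.35 in EcRi animals (adjusted p = 0.65) and by 0.72 ± 0.35 in control animals (adjusted p = 0.36). Its mean intensities at -4, 0 and 4 h were 747, 591 and 392 in EcRi animals, against 607, 990.0 and 865 in control animals. phm over the same first interval changed by 0.36 ± 0.21 in EcRi and by -0.42 ± 0.21 in control animals. None of these values passed the limit on p, though the Start1 change in control animals was 1.65-fold, in a background of 0% of probe sets called in EcRi and 3.11% in control animals from -4 to 0 h, and 1.47% and 4.6% from 0 to 4 h. By limma at an unadjusted p under 0.05 there were 0 members in EcRi and 1, dib, in control animals for the first interval, beside 4.32% and 15% of all probe sets. For the second interval there was 1, sad, in EcRi and 0 in control animals, beside 12.6% and 12.1%. Without the 2 arrays that stand apart Start1 was called from 0 to 4 h in EcRi animals, at -1.01 ± 0.25 (adjusted p = 0.037). In that fit 857 of 13966 probe sets were called for this change, against 205 with all arrays.

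The change of the EcRi effect between times was tested as an interaction of strain and time. Between -4 and 0 h it was -1.20 ± 0.49 for Start1 (adjusted p = 0.35) and 0.79 ± 0.29 for phm (adjusted p = 0.32), and both had an unadjusted p under 0.05, as did 14.1% of all probe sets. Between 0 and 4 h it was -0.34 ± 0.49 for Start1 and -0.26 ± 0.29 for phm, with 0 members at that unadjusted limit, beside 10.4% of all probe sets. No member was called in either, where 1.44% and 2.65% of all probe sets were. A difference of the EcRi effect between times was therefore not shown for any member.

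The rest of the pathway was described from lists of other genes. The first held 11 measured genes that act in sterol supply, electron transfer and other steps of steroid synthesis. By limma 0, 0 and 1 of them were called over the 3 times, and 1, 3 and 3 had an unadjusted p under 0.05. Over all probe sets 2.94%, 7.69% and 13.4% were called, and 12.7%, 23.2% and 30.5% had such a p. The median difference of the 11 genes was -0.05, 0.00 and -0.01. The gene called was Npc2a, a sterol-binding protein gene of the Niemann-Pick type C family. It read 1790.4, 3281 and 2308 in EcRi animals at 4 h, against 3919, 3665 and 3682 in control animals (-0.65 ± 0.15, adjusted p = 0.012). All EcRi arrays were below all control arrays, which held for 21.2% of all probe sets at 4 h. Without EcRi 4 h replicate 1 the difference was -0.45, under the fold limit. Without the 4 arrays it was -0.19, from the 1 EcRi array left, which had the highest EcRi reading of 3281.

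Among 8 genes of ecdysteroid inactivation, transport and reception, 1, 1 and 3 were called at -4, 0 and 4 h, all lower in EcRi animals. Their medians were 0.06, -0.02 and -0.53. Of all probe sets 2.94%, 7.69% and 13.4% were called at these times in either direction. Atet, an ABC transporter gene known for loading ecdysone into secretory vesicles of the gland, was lower at each time. It read 313, 329 and 319 in EcRi animals at -4 h, against 618, 839 and 944 in control animals (-1.30 ± 0.14, adjusted p = 1.9e-04). At 0 h it read 269.9, 378 and 328 in EcRi animals, against 849, 942 and 849 in control animals (-1.45 ± 0.14, adjusted p = 2.4e-05). At 4 h the EcRi arrays read 266, 303 and 271, against 570.2, 526 and 492 in control animals (-0.92 ± 0.14, adjusted p = 8.0e-04). All EcRi arrays were below all control arrays at 0 and 4 h, which held for 15.7% and 21.2% of all probe sets. The 3 calls of Atet held in each of the 18 fits that left out an array.

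Cyp18a1, whose P450 inactivates 20E, and usp, whose product is the partner of EcR, were called lower at 4 h. Cyp18a1 read 134, 421 and 159.8 in EcRi animals at 4 h, against 474, 395 and 329 in control animals (-0.92 ± 0.32, adjusted p = 0.066). The strains overlapped, and the difference was 0.09 for EcRi replicate 2 alone, the array left without the 4. Its call also needed each of EcRi 4 h replicates 1 and 3 and control 4 h replicates 1 and 2. At -4 h Cyp18a1 read 43.5 to 48.8 in EcRi animals, with 0 arrays above the floor. Control animals then read 87.2 to 135.7, with 2 arrays above it. The floor thus hides most of that gap: the difference was -0.21 ± 0.32 and uncalled. Under other settings it reached -1.17, and it was called in 1 of 32. usp lay close to the floor, at 38.4, 119 and 58.3 in EcRi animals, with 2 of the 3 under it, and 214, 147 and 152 in control animals at 4 h (-0.75 ± 0.22, adjusted p = 0.037). The size of this difference depends on how low values are treated: it was -1.39 with the floor at the 5th percentile (adjusted p = 0.054), -1.02 with a pseudocount in place of the floor (adjusted p = 0.039) and -0.09 with the floor at the 40th percentile (adjusted p = 0.39). It was -0.50 for the 1 EcRi array left without the 4, and its call was lost on leaving out EcRi 4 h replicate 1 or replicate 3, or control 4 h replicate 1.

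Of 19 measured genes of signalling to and within the gland, 1, 1 and 2 were called at -4, 0 and 4 h. Their medians were 0.00, -0.16 and -0.06, and the shares called over all probe sets were 2.94%, 7.69% and 13.4%. Sos, a Ras exchange factor gene that acts below receptor tyrosine kinases such as Torso, was lower in EcRi animals at -4 h (-0.85 ± 0.19, adjusted p = 0.029). It was higher there at 0 h (0.73 ± 0.19, adjusted p = 0.032), and again higher when 4 h was reached (1.46 ± 0.19, adjusted p = 2.3e-04). At 4 h it read 625, 652 and 818 in EcRi animals, against 225, 272 and 262 in control animals. The call at 4 h held in each fit that left out an array. The call at -4 h was lost without EcRi -4 h replicate 3 or control -4 h replicate 3, and the call at 0 h without control 0 h replicate 1 or 3. Both were also lost when only the compared arrays were fitted (adjusted p = 0.13 and 0.21). put, a receptor gene of the TGF-beta/Activin pathway, was lower at 4 h (-0.89 ± 0.30, adjusted p = 0.062). Its readings there were 35.5, 142 and 40.6 in EcRi animals, with 2 under the floor, against 260.1, 195 and 148 in control animals. Its size varied likewise, at -1.73 with the 5th-percentile floor (adjusted p = 0.065), -1.27 with the pseudocount (adjusted p = 0.048) and -0.22 with the 40th-percentile floor (adjusted p = 0.49). It was -0.47 for the 1 EcRi array left without the 4, and its call needed each of EcRi 4 h replicates 1 and 3 and control 4 h replicates 1 and 2.

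**Figure D4:**
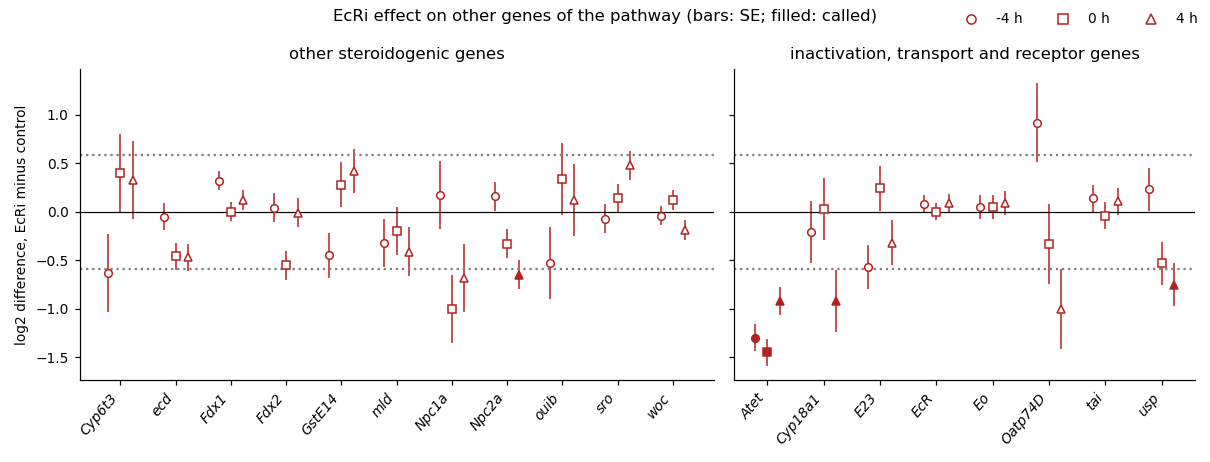
Difference between EcRi and control animals in log2 intensity for 11 other genes of steroid synthesis (left) and 8 genes of inactivation, transport and reception (right) at -4, 0 and 4 h, with bars of 1 SE. Filled points are called and dotted lines mark 1.5-fold. Atet is filled at all 3 times, at -1.30, -1.45 and -0.92.

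The genes whose log2 intensity followed each member most closely over the 18 arrays were taken from 10026 candidate probe sets. These correlations are a description, and their points share strains, times and arrays. For Start1 they were CG9044, ClC-c and grp, each with a Pearson r of 0.99, and over the 14 arrays without the 4 named above r was 0.93, 0.90 and 0.92. For phm they were CG14079 (0.98), Mp (0.97) and CG8774 (0.97), with 0.92, 0.90 and 0.86 over 14 arrays. Those nearest to dib were Jhbp7 (0.84), SIFaR (0.78) and CG12065 (0.78), with 0.79, 0.80 and 0.70 over 14 arrays. Those nearest to sad were GLaz (0.91), CG11262 (0.89) and CG6527 (0.88), and over 14 arrays r was 0.63, 0.72 and 0.69. For shd they were sut1 (0.84), mRpS29 (0.84) and CG32202 (0.82), with 0.68, 0.66 and 0.65 over 14 arrays. No member of the group was nearest to another by this measure, since members were left out of the candidates.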

How the data were processed

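Total RNA from whole animals was hybridised to 1 array per sample. The deposited values are expression intensities per probe set, which the authors normalized and summarised with dChip 1.2. The sources used here do not state the probe-level model, background treatment, baseline array or scan batches. Depth does not apply to arrays, and the number of arrays limits the precision.

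Groups were taken from the sample labels. Values under the floor (the 20th percentile) were set to the floor, and log2 followed. A model with 1 mean per group was fitted to 18 arrays with limma 3.58.1 in R 4.3.3 (12 residual degrees of freedom, eBayes). P-values are two-sided and adjusted over 13966 probe sets. The code was tested on simulated data. The study's own test, SAM (significance analysis of microarrays), was not run here, and its limits on the false discovery rate and fold were kept.

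Members and gene lists were chosen with earlier results of these data known. All members are named. From the lists on synthesis, turnover and gland signalling, called genes are named, at most 4 per list and comparison, beside EcR and the 3 genes most like each member. Likeness over 14 arrays was added after seeing the data. nvd, spok, dare and ALAS-na had no matched probe set. As deviations from their group means, same-numbered samples of the strains at the same time correlated at -0.47 to 0.30 (2 of 9 pairs over 0.1). The numbers were therefore not taken as pairs. Other settings were floors at the 5th and 40th percentile, a pseudocount of 32, quantile normalization, aligned medians, brighter probe sets only, a variance trend, compared arrays only, the replicate block, other limits and fits without 1, 2 or 4 arrays.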

Additional observations from a re-analysis of the deposited data

How the results depend on the processing

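Of 1600 values of members under the alternatives, 1513 kept their direction and stayed called or uncalled, 35 lost a call, 7 gained one and 45 turned sign, none of the last beyond 0.26 in size. Signs were compared at 2 decimals, with 0.00 taken as no sign, and a call needs both limits, so some uncalled values crossed the limit on p alone, such as phm at 4 h without the 2 arrays (adjusted p = 9.6e-04, against 0.24). The number of members called at 0 h was 1, and 0 with quantile normalization, the compared arrays only, without the 2 arrays that stand apart, without 4 arrays, at an adjusted p under 0.05 and with a 2-fold limit (0 to 2 with an array left out). At 4 h it was 1, but 0 without 4 arrays, which leaves 1 EcRi array then, and 3 with no fold limit (0 to 1 with an array left out). For the mean over the 3 times it was 1, and 0 with the pseudocount, quantile normalization, without 2 or 4 arrays, at an adjusted p under 0.05 and with a 2-fold limit (0 to 1). For the change from 0 to 4 h in EcRi it was 0, but 1 without the 2 arrays (0 to 1), and for the change from -4 to 0 h in control 0 (0 to 1). The cause was not tested.

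Signs turned as follows, none with a call. Without the 2 arrays, and likewise without 4, the EcRi effect was 0.04 for phm and 0.01 for dib at -4 h and 0.19 for shd at 0 h. In these fits sad changed by 0.03 in EcRi and -0.04 in control from -4 to 0 h, and the effect at 0 h minus that at -4 h was -0.01 for dib, 0.07 for sad and 0.19 for shd. Without 4 arrays alone, sad was at -0.26 at 4 h, -0.07 from 0 to 4 h in EcRi and -0.12 for the effect at 4 h minus that at 0 h, and Cyp18a1 at 0.09 at 4 h, where it had been called. Without the 2 arrays phm was at 0.04 for the effect at 4 h minus that at 0 h. Quantile normalization gave 0.03 for shd at 0 h, 0.01 for the mean effect on sad and 0.01 for sad from -4 to 0 h in EcRi, as did aligned medians (0.01). With an array left out, the EcRi effect ran from -0.25 to 0.04 for phm, -0.15 to 0.01 for dib and -0.21 to 0.03 for sad at -4 h. It ran from -0.09 to 0.18 for dib and -0.12 to 0.19 for shd at 0 h, -0.07 to 0.50 for sad at 4 h and -0.12 to 0.07 for the mean effect on sad. Changes ran from -0.07 to 0.03 (EcRi) and -0.04 to 0.20 (control) for sad from -4 to 0 h, and -0.30 to 0.01 for shd (EcRi) and -0.07 to 0.13 for sad (control) from 0 to 4 h. The effect at 0 h minus that at -4 h ran from -0.01 to 0.26 for dib, -0.22 to 0.02 for sad and -0.15 to 0.15 for shd, and that at 4 h minus that at 0 h from -0.46 to 0.04 for phm.

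With the replicate number as a block, which the check of pairing did not call for, probe sets called were 401 at -4 h, 1100 at 0 h and 1920 at 4 h, against 411, 1074 and 1873 without it. phm was at 0.64 at 0 h (adjusted p = 0.083), and the block changed no call of a member.

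With 3 arrays a group, SEs for members lay at 0.13 to 0.35 for an EcRi effect, so differences near 1.5-fold could be missed. spo lay under the floor on every array and gave no value.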
